A study of Mus musculus with 8 samples.

Results

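The genes described here encode 8 enzymes that activate short-chain acids or make and use ketone bodies: Acsf2, Acsm3, Acss1, Acss2, Acads, Acat1, Bdh1 and Oxct1. They were taken by symbol from a table of 17041 genes measured in the proximal large intestine of ApoE knockout mice, and 8 of 8 had a row. The labels tie none of the 8 libraries to a named mouse or cage, so p-values measure only the spread between these samples. All mice were germ-free ApoE knockouts that were colonized at 8 weeks of age by oral gavage and dissected at 26 weeks. In the core group (n = 3) they carried a community of bacteria that makes no butyrate, and in the core plus R. intestinalis group (n = 5) the same community with the butyrate producer Roseburia intestinalis. Mice with intact ApoE and germ-free mice were not analysed here. The labels do not state the diet, sex, cage or isolator of each mouse.

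Butyrate is a main fuel of the colonocyte, the absorptive epithelial cell of the colon. A short-chain acid must first be joined to coenzyme A by an acyl-CoA synthetase before mitochondria can oxidize it, and butyryl-CoA is then dehydrogenated and carried through the last turn of beta-oxidation to acetoacetyl-CoA and acetyl-CoA. Ketone bodies, acetoacetate and 3-hydroxybutyrate, meet the same pathway, because acetoacetate is activated to acetoacetyl-CoA and split by the same thiolase.

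Of the members, Acsf2 had the highest and Acsm3 the lowest log2 difference between the groups, so their upstream sequences are shown. RefSeq (GRCm38.p6, a later build than the mm9 named in the submitters' processing notes) gave windows for 7 of 8 members; Acat1 had none. Each sequence below is the 250 bases before the annotated start, 5′ to 3′ on the gene's strand. Capitals mark GC boxes (GGGCGG) and CCAAT boxes (CCAAT), searched on both strands, with overlapping matches counted separately.
Acsf2, chr11:94601787-94602036, minus strand: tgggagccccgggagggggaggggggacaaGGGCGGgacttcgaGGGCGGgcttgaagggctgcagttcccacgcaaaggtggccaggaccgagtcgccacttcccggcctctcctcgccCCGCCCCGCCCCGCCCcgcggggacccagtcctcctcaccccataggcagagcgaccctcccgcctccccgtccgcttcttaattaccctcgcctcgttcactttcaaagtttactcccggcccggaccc
Acsm3, chr7:119760673-119760922, plus strand: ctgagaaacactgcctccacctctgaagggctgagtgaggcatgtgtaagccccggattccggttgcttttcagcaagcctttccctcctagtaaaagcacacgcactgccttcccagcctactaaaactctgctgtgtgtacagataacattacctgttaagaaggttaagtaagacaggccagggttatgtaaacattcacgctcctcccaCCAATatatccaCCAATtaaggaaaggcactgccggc
The Acsf2 window had a GC content of 70.0% and 5 GC boxes, and the Acsm3 window 49.2%, no GC box and 2 CCAAT boxes; the median over all 32851 RefSeq windows was 52.4%. GC boxes were also present upstream of Acss2 (4), Acss1 (2) and Acads (1), and a CCAAT box upstream of Acss2, while 32.7% of all windows held a GC box and 33.8% a CCAAT box. No member window held CACGTG (the E-box, in 6.02% of all windows), TATAAA (12.4%), TGACGTCA (1.55%) or the direct repeat bound by nuclear receptors that is named direct repeat 1 (0.0335%). These matches describe letters in these windows.

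Values are the authors' normalized expression values, and differences are core plus R. intestinalis minus core on the log2(value + 1) scale, with limma's standard error (SE) and a Benjamini-Hochberg adjusted p over the 13020 genes with a mean of at least 10. Depth, estimated from the step between low values, was 4607029 to 6495046 reads for the core libraries. Libraries with R. intestinalis had 5393908 to 15349671 estimated reads. The tissue label was checked against markers: Epcam, of epithelium, lay between 11501 and 14865 in the 8 libraries, Car1, of colonocytes, between 12235 and 109366, and Muc2, of goblet cells, between 75618 and 243421. Other colonocyte markers did not follow Car1. In core plus R. intestinalis replicate 2, which had the highest Car1, Car4 (5080), Slc26a3 (2591), Aqp8 (47.4) and Slc9a3 (133) were at their lowest, while Scnn1b (96.0) was not. Hoxb13, a gene of the distal hindgut, varied between 25.3 and 439 among core libraries and between 2.16 and 663 among those with R. intestinalis. Core plus R. intestinalis replicate 1 stood apart in its GC content: its values were 0.564 log2 units higher for each 10 percentage points of transcript GC content, against slopes of −0.317 to 0.224 in the other libraries. Member differences that moved by over 1.5 times without 1 library or after a GC correction are given with those values.

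No member passed the threshold, and 0 of the 13020 genes tested did (0% called). At an unadjusted p below 0.05, 1 of 8 members was called, where 8.13% of all genes tested were (4.44% in the direction of higher with R. intestinalis). The groups did not overlap in 1 member, higher with R. intestinalis, where 5.84% of all genes tested were apart, 2.53% in that direction. Both counts are Acsf2. Of the 8 log2 differences, 5 were above 0 and 3 below, with a median of 0.09, beside 49.6% above 0 and a median of 0.00 over all genes tested.

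Acsf2 encodes a mitochondrial acyl-CoA synthetase that prefers medium-chain acids. Its normalized value was 141, 145 and 165 in core replicates 1 to 3, and 318, 240, 213, 301 and 282 in core plus R. intestinalis replicates 1 to 5. All 5 libraries with R. intestinalis lay above all 3 core libraries, and the lowest of them, replicate 3, was still above the highest core library. The log2 difference was 0.83 (SE 0.168), a 1.78-fold higher level with a 95% interval of 1.38 to 2.30. Its unadjusted p, 0.000503, was the 4th smallest of all genes tested, its limma adjusted p was 0.588, and the two-sided exact permutation p was 0.0179, the smallest that 3 against 5 libraries allow. With the groups apart, no other split in that direction can give a larger difference, so the permutation p restates the separation. In the authors' deposited table Acsf2 had a posterior probability of differential expression of 0.98 and a raw fold change of 1.8, and 0.481% of all deposited genes reached 0.95, 0.194% as higher with R. intestinalis. Behind these values stood an estimated 89 to 144 reads per core library and 221 to 477 per library with R. intestinalis.

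Acsm3, a mitochondrial synthetase of the medium-chain family that also accepts butyrate, averaged lower with R. intestinalis. Its normalized value was 1836, 1922 and 1553 in core, and 891, 1285, 1926, 1276 and 1807 with R. intestinalis. The groups overlapped, since replicate 3 was just above the highest core library and replicate 5 among the core libraries, while replicates 1, 2 and 4 lay below them. The log2 difference was −0.35 (SE 0.231, 95% interval −0.86 to 0.16, limma adjusted p = 0.612, two-sided exact permutation p = 0.321). Without core plus R. intestinalis replicate 1 it was −0.19, and after the GC correction −0.18. Acsm3 shares 1962 exon bases with Eri2 on the opposite strand in the GENCODE annotation; Eri2 averaged 67.1 ± 15.0 (SD, n = 3) and 69.2 ± 13.3 (SD, n = 5), and the labels do not state whether counting used the strand. Exons of Acss1, Acss2, Bdh1 and Oxct1 are overlapped by antisense or noncoding transcripts that have no row in the table.

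Acetate has 2 synthetases among the members, and neither separated the groups. Acss1, the mitochondrial enzyme, had normalized values of 391, 387 and 455 in core and of 624, 477, 413, 436 and 475 with R. intestinalis. Core replicate 3 lay within the range of the second group, and replicate 1 stood above the rest. The log2 difference of Acss1 was 0.23 (SE 0.155, 95% interval −0.12 to 0.57, limma adjusted p = 0.619), and 0.13 without core plus R. intestinalis replicate 1. Acss2, the cytosolic and nuclear enzyme that supplies acetyl-CoA for lipid synthesis and histone acetylation, had normalized values of 868, 891 and 798 in core. With R. intestinalis they were 815, 813, 1093, 836 and 1068, so that replicates 3 and 5 lay above the core libraries and the others among them. Its log2 difference was 0.11 (SE 0.144, 95% interval −0.21 to 0.42, limma adjusted p = 0.771). It was 0.04 without core plus R. intestinalis replicate 3, 0.05 without replicate 5 of that group, 0.06 without core replicate 3 and 0.04 after the GC correction. Exons of Acss2 overlap those of Gss on the opposite strand by 395 bases, and Gss averaged 1153 ± 285 (SD, n = 3) and 1199 ± 174 (SD, n = 5).

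**Figure D1:**
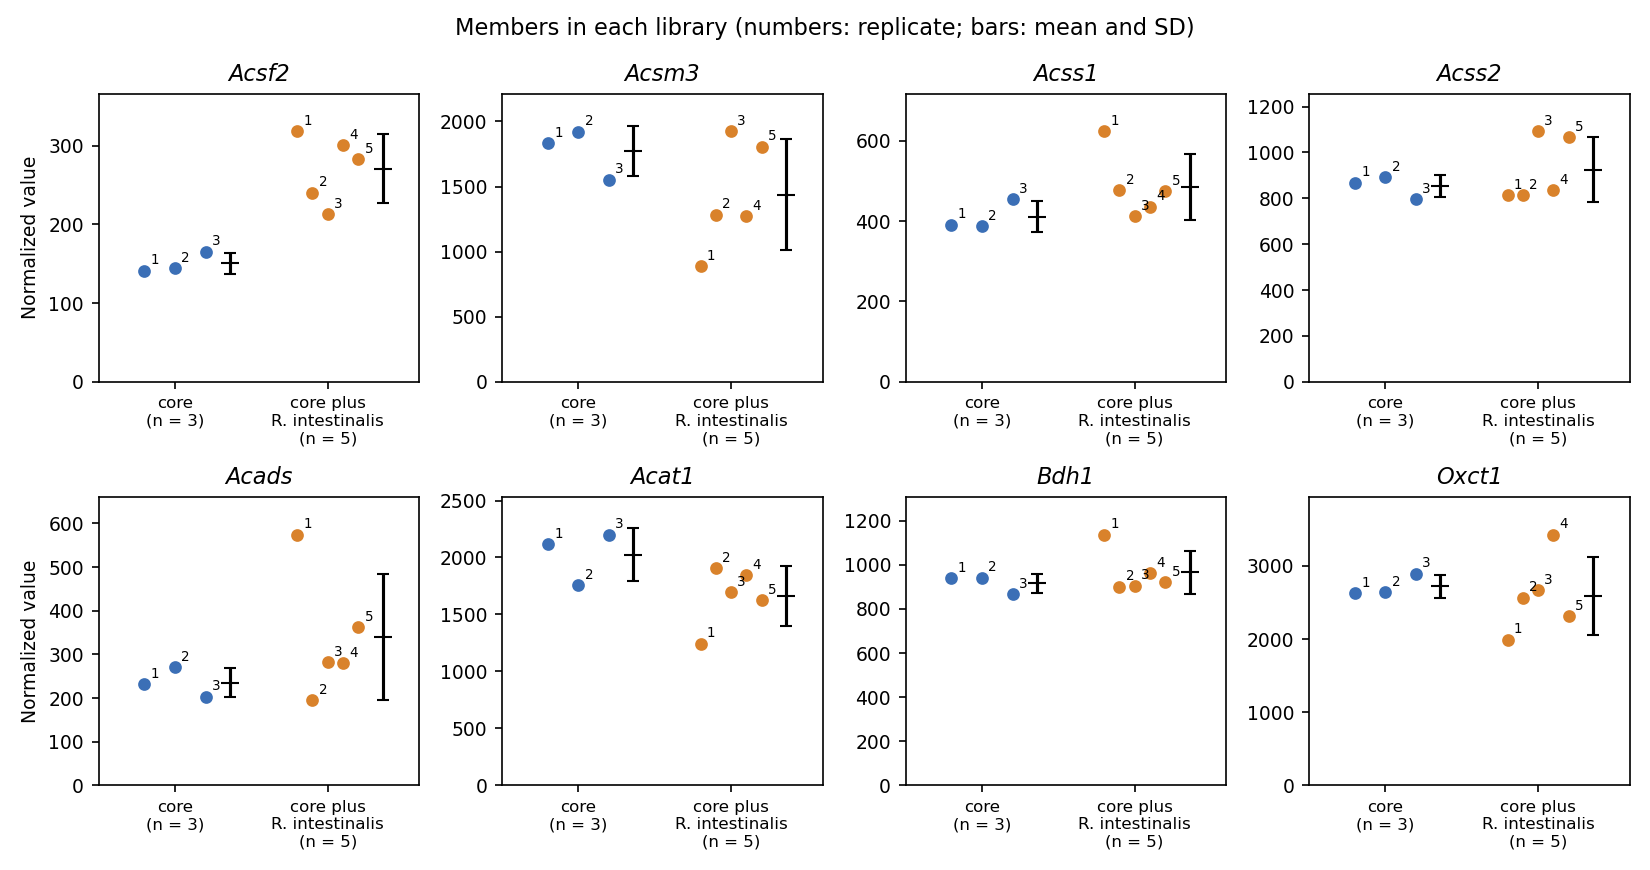
Normalized values (vertical axes, from 0) of the 8 members in each library of core (blue, n = 3) and core plus R. intestinalis (orange, n = 5), numbered by replicate, with mean and SD as bars. Only for Acsf2, of the 8, do the groups not overlap (141 to 165 against 213 to 318).

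Acads, the short-chain acyl-CoA dehydrogenase that takes butyryl-CoA into beta-oxidation, varied most between libraries with R. intestinalis. Its normalized value was 232, 270 and 203 in core, and 574, 195, 282, 280 and 362 with R. intestinalis. Replicate 1 stood far above all other libraries and replicate 2 just under the lowest core library, so the core values lay inside the range of the second group. The coefficient of variation was 14.3% in core and 42.6% with R. intestinalis. The log2 difference was 0.44 (SE 0.291, 95% interval −0.21 to 1.08, limma adjusted p = 0.612). It was 0.23 without core plus R. intestinalis replicate 1 and 0.09 after a GC correction; Acads has the highest transcript GC content of the members, 60.1%. With the mean level of epithelial markers as a covariate it was −0.10, with that of smooth muscle markers 0.90 and with Hoxb13 0.52.

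Acat1, the mitochondrial acetoacetyl-CoA thiolase, closes both butyrate oxidation and ketone body use. Its normalized value was 2114, 1760 and 2201 in core, and 1243, 1908, 1695, 1847 and 1626 with R. intestinalis. Core replicates 1 and 3 lay above all 5 libraries with R. intestinalis, while core replicate 2 lay among them. The log2 difference was −0.29 (SE 0.158, 95% interval −0.64 to 0.06, limma adjusted p = 0.591, two-sided exact permutation p = 0.125), −0.19 without core plus R. intestinalis replicate 1 and −0.19 after a GC correction. The authors' deposited table gave Acat1 a posterior probability of 0.01.

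The 2 members that belong to ketone bodies alone showed small differences. Bdh1, which interconverts acetoacetate and 3-hydroxybutyrate, had normalized values of 939, 942 and 868 in core and of 1137, 902, 906, 963 and 922 with R. intestinalis. Apart from replicate 1, the libraries of both groups lay between 868 and 963. The log2 difference of Bdh1 was 0.07 (SE 0.121, 95% interval −0.20 to 0.34, limma adjusted p = 0.817), an interval that in folds runs from 0.873 to 1.27. It was 0.01 without core plus R. intestinalis replicate 1, 0.03 without core replicate 3 and −0.01 after the GC correction. Oxct1, which activates acetoacetate with coenzyme A from succinyl-CoA and is the step that commits a cell to burning ketone bodies, had normalized values of 2625, 2640 and 2896 in core. With R. intestinalis it ran wider, at 1994, 2566, 2672, 3428 and 2311, with both the highest and the lowest of the 8 libraries in that group. Its log2 difference was −0.09 (SE 0.166, 95% interval −0.46 to 0.28, limma adjusted p = 0.834). Single libraries set its size, which was −0.0013 without core plus R. intestinalis replicate 1, −0.20 without replicate 4, −0.05 without replicate 5 and −0.04 without core replicate 3. After the GC correction it was −0.03.

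Across libraries the members did not move as 1 block. Core plus R. intestinalis replicate 1 had the highest value of the 8 libraries for 4 members (Acsf2, Acss1, Acads and Bdh1) and the lowest for 3 (Acsm3, Acat1 and Oxct1). Relative to the core mean, Acads was 1.29 log2 units higher and Acsm3 0.98 lower in that library (−0.98). The 3 members with a negative group difference, Acsm3 (41.7%), Acat1 (45.5%) and Oxct1 (47.7%), were those with the lowest transcript GC content, and the other members ran from 51.8% (Acss1) to 60.1% (Acads). After the GC correction Acsf2 was still higher in all 5 libraries with R. intestinalis than in any core library, with a log2 difference of 0.68 (SE 0.151).

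**Figure D2:**
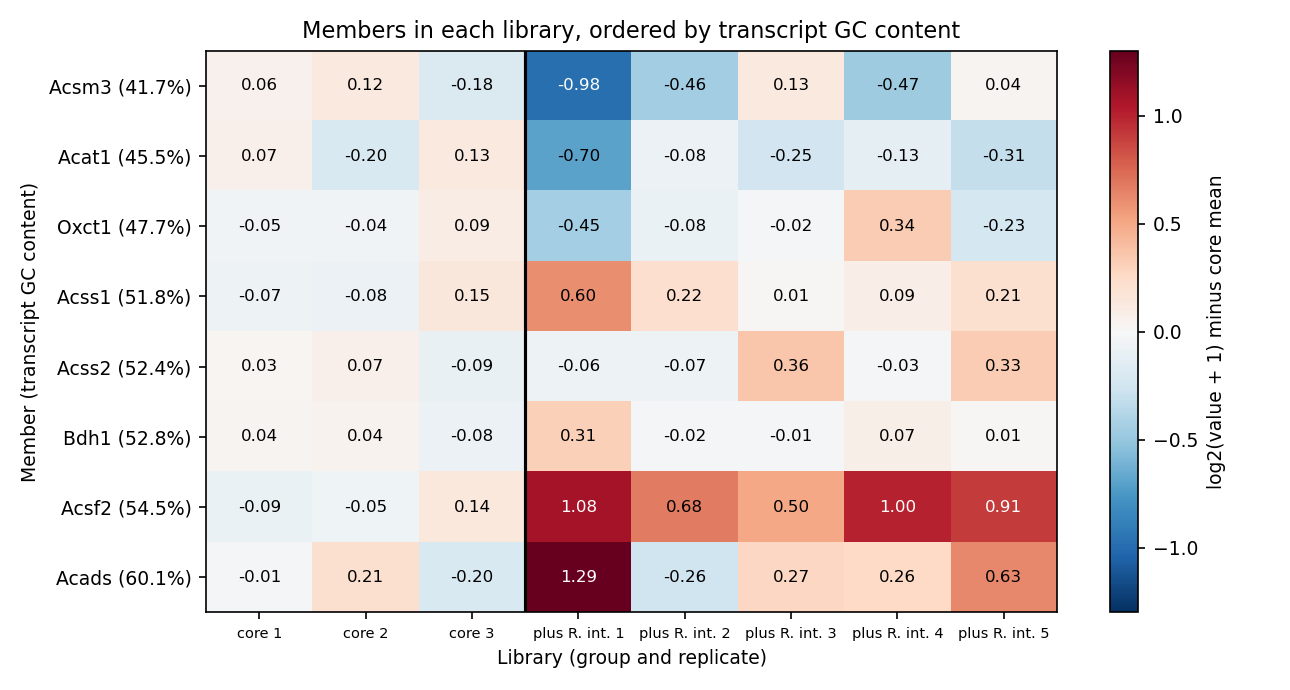
Log2(value + 1) of each member (rows, ordered by transcript GC content) in each library (columns, with "plus R. int." for core plus R. intestinalis) minus the mean of the core libraries. Acsf2 is above the core mean in all 5 libraries with R. intestinalis (0.50 to 1.08), and replicate 1 runs from −0.98 for Acsm3 to 1.29 for Acads.

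Levels of different genes were compared only per length of the principal transcript in the GENCODE annotation, since a longer transcript yields more reads. In core libraries Oxct1 had the highest level, 771 ± 43.3 per kilobase (SD, n = 3), followed by Acsm3 (661), Acat1 (595), Bdh1 (535), Acss2 (291), Acads (126), Acss1 (114) and Acsf2 (47.7 ± 4.12). Neighbours in this order whose core libraries overlapped were Acsm3 and Acat1, Acat1 and Bdh1, and Acads and Acss1. Acsf2 was thus the lowest of the members, and at 85.9 ± 13.8 per kilobase (SD, n = 5) with R. intestinalis it still averaged under the others. The places of Bdh1 and Acsm3 rest on the transcript chosen. With its longest coding transcript (3122 bases rather than 1711) Bdh1 had a core level of 293, overlapping that of Acss2. With its own longest coding transcript (3295 bases rather than a median of 2677.5) Acsm3 had a core level of 537 and came after Acat1.

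**Figure D3:**
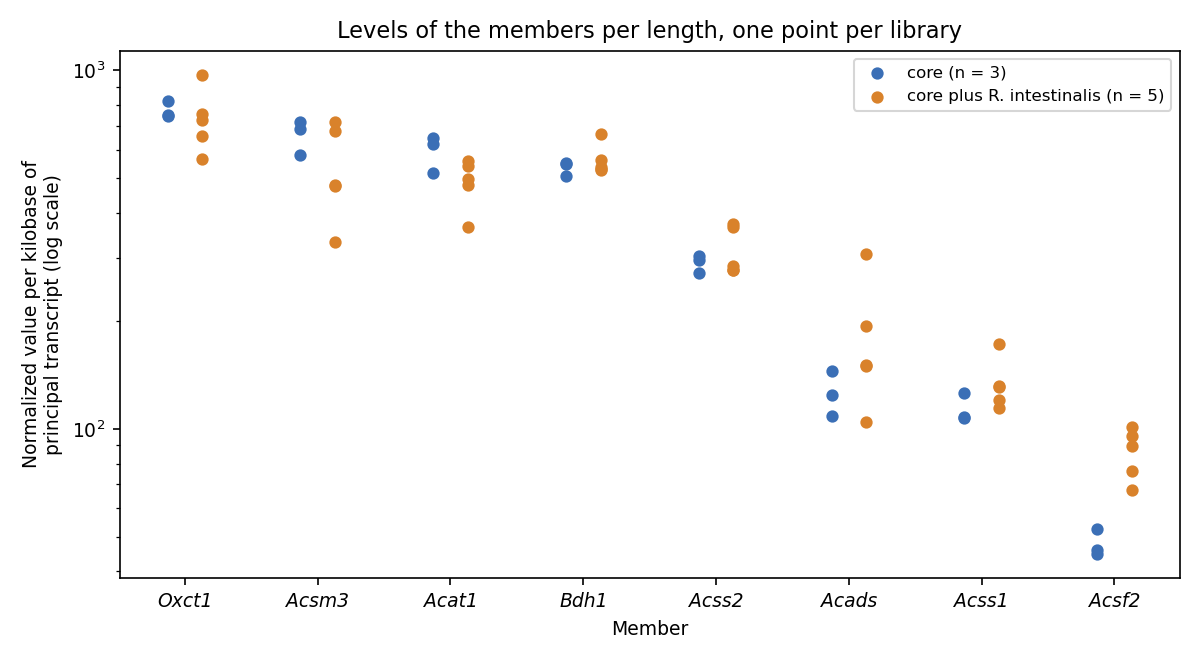
Normalized value per kilobase of principal transcript (log axis) for each member, 1 point per library, in core (blue, n = 3) and core plus R. intestinalis (orange, n = 5). Oxct1 is highest in core (771) and Acsf2 lowest (47.7).

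Other genes of the same pathways were taken from 4 lists of 35 genes, of which 33 had a row and 25 were tested. Past the threshold were 0 of the 25, with 9 log2 differences above 0, 16 below and a median of −0.03. At an unadjusted p below 0.05, 0 were higher and 1 lower, where 4.44% and 3.69% of all genes tested were. Some related genes were low in all libraries: Acsm1, Acsm5, Oxct2a, Oxct2b and Acat3 had no normalized value above 2.97, Acsm2 none above 13.8 and Acss3 none above 19.1. Acat2 lay between 271 and 472.

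Among the 6 other acyl-CoA synthetases tested, 3 differences were above 0 and 3 below, with a median of 0.10. Acsf3, which activates malonate in mitochondria, averaged 35.5 ± 16.8 (SD, n = 3) and 57.6 ± 31.0 (SD, n = 5), with a log2 difference of 0.65. Aacs, which activates acetoacetate in the cytosol for lipid synthesis, averaged 276 ± 64.6 and 425 ± 149 (log2 difference 0.57, SE 0.291, limma adjusted p = 0.588), with core replicate 3 (339) above replicate 4 (234) of the second group. Acsl1, a long-chain synthetase, averaged 238 ± 11.6 and 278 ± 39.3 (log2 difference 0.22).

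Among 12 mitochondrial oxidation genes, 4 differences were above 0 and 8 below, with a median of −0.04. The groups were apart in 2 of the 12, where 5.84% of all genes tested were apart. Acadsb, the dehydrogenase of short branched acyl-CoA from isoleucine, was 485, 438 and 375 in core and 240, 332, 284, 349 and 331 with R. intestinalis, where every library lay below every core library. Its log2 difference was −0.50 (SE 0.162, limma adjusted p = 0.588), opposite in sign to that of Acads. Ivd, the dehydrogenase of the leucine pathway, was 195, 218 and 222 in core and 244, 242, 279, 235 and 258 with R. intestinalis, apart in the other direction (log2 difference 0.25, SE 0.132, limma adjusted p = 0.591). Groups apart and lower were found in 3.31% of all genes tested, and groups apart and higher in 2.53%. Hadh, the dehydrogenase of short and medium 3-hydroxyacyl-CoA, averaged 2302 ± 377 and 2596 ± 313 (log2 difference 0.18).

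Of 3 other ketone body and acetoacetyl-CoA genes tested, 1 difference was above 0 and 2 below. Hmgcll1, a lyase outside mitochondria, averaged 26.4 ± 4.05 and 20.3 ± 9.27, and Bdh2, a cytosolic short-chain dehydrogenase, 16.6 ± 3.46 and 12.3 ± 3.69 (SD, n = 3 and n = 5). Acat2, the cytosolic thiolase, averaged 360 ± 77.6 and 397 ± 69.9 (log2 difference 0.15). Acat3 is a close copy whose reads the counting could split, and it had no value above 2.97. How far such splitting touches the level of Acat2 was not tested. Of 4 genes that carry propionyl-CoA into the tricarboxylic acid cycle, Pcca averaged 397 ± 78.2 and 312 ± 67.3, Mcee 484 ± 62.5 and 446 ± 64.7, and Pccb 906 ± 53.1 and 979 ± 118.

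**Figure D4:**
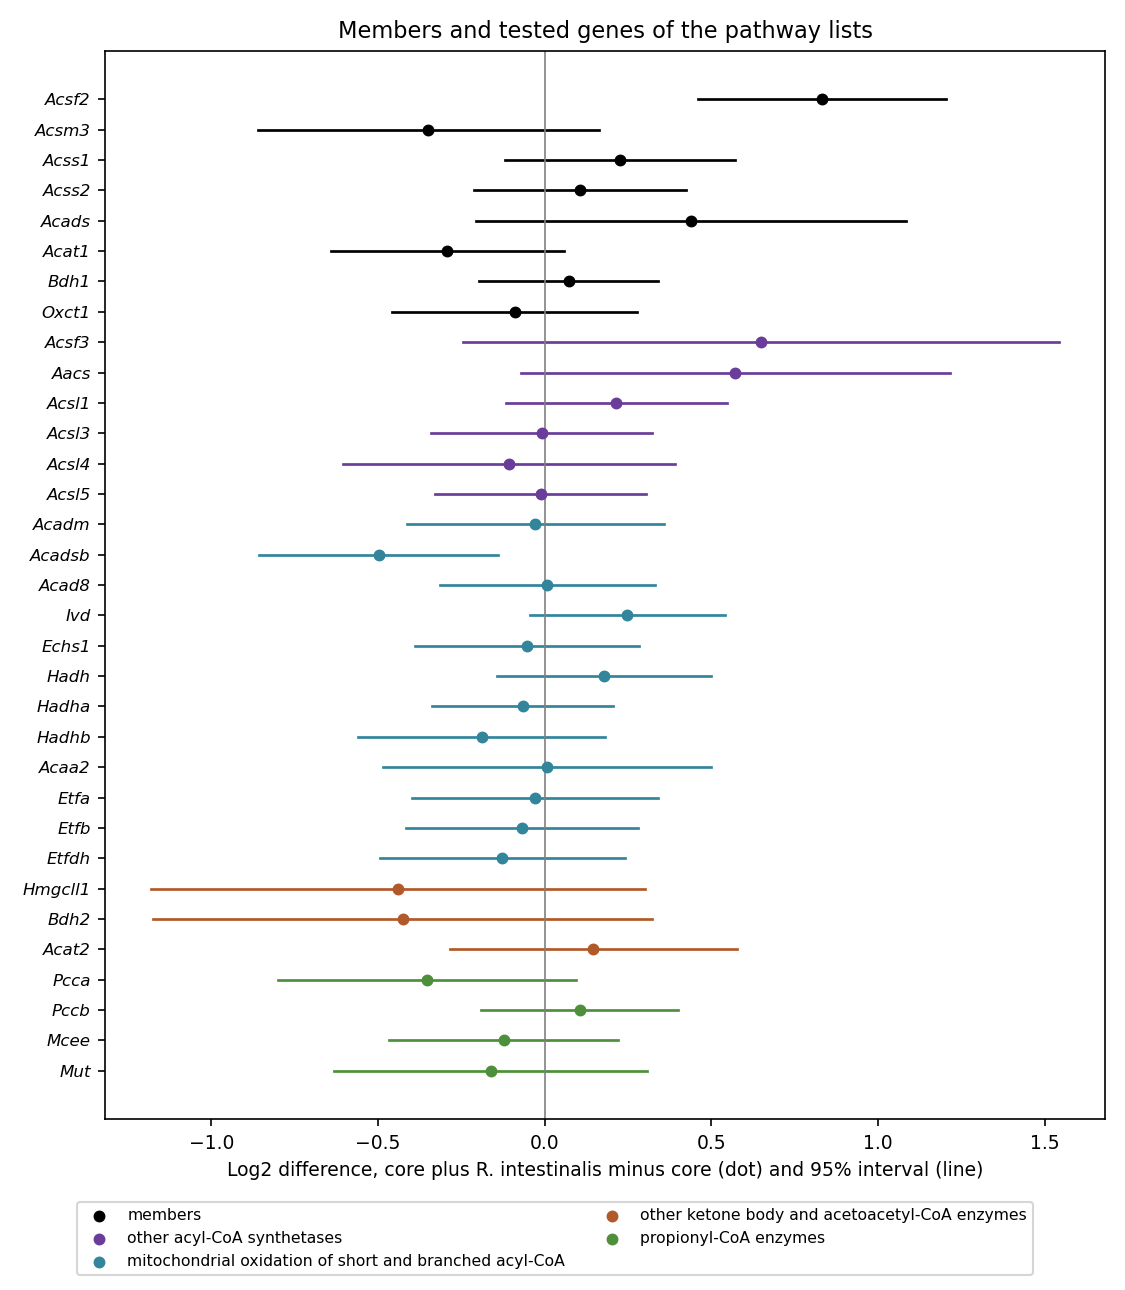
Log2 difference, core plus R. intestinalis minus core (horizontal axis), with its 95% interval from limma, for the 8 members and the 25 tested genes of the 4 pathway lists (colours). The interval of Acsf2 lies above 0 (0.46 to 1.20), and none of the 33 genes passed the adjusted threshold.

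The genes whose pattern over the 8 libraries was most like that of Acsf2, among 9508 genes with a mean of at least 50, were Pigm (Pearson r 0.97), Tiam2 (0.95), Btnl2 (0.94), Odf3b (0.94) and Cdhr1 (0.94). With the group means removed, these r were 0.72 to 0.87. They are the highest of many values over few libraries that share their depth and GC content, and are given as a description. For the other members the closest 2 were Smpdl3a and Zfp281 (Acsm3), Zfp408 and Prkab1 (Acss1), Slc26a2 and Slc2a13 (Acss2), Plekhg6 and Letm1 (Acads), Eif1a and Gnb2l1 (Acat1), Smarcb1 and Usp36 (Bdh1), and Btbd1 and Cdc37 (Oxct1), with r from 0.95 to 1.00.

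In whole tissue, fewer cells of a type and less RNA per cell cannot be told apart. Markers of the cell types of the wall differed on average between the groups, and none of them passed the threshold. All 8 epithelial markers had a log2 difference above 0 (median 0.21), with summed values of 72795 to 81834 in core and 70832 to 99497 with R. intestinalis. All 6 smooth muscle markers were below 0 (median −0.50; summed values 127430 to 175440 and 84935 to 149856), as were all 6 fibroblast markers (median −0.62; 7454 to 8627 and 4512 to 6591). All 5 adipocyte markers tested were below 0 (median −1.73; summed values of the 6 listed, 788 to 1990 and 147 to 986), and no marker of these lists was at 0 in all libraries (Lep was listed at 0 in replicates 1 and 5 with R. intestinalis). Goblet cell markers were above 0 in 1 of 6 (median −0.15; summed values 203528 to 328310 and 218666 to 360556) and colonocyte markers in 4 of 6 (median 0.19; 37989 to 94350 and 67306 to 117314). A sum is weighted to the most abundant gene of its list, which is Car1 for colonocytes. The mean log2 level of the colonocyte list was 10.7 to 11.3 in core and 9.94 to 12.3 with R. intestinalis. Small intestine markers were above 0 in 5 of 5 tested (median 1.33; 114 to 1299 and 265 to 2780), distal hindgut markers in 0 of 3 (median −0.72; 58.6 to 599 and 11.9 to 886), immune markers in 2 of 5 (median −0.24; 6164 to 9769 and 2992 to 8328) and liver markers in 1 of 3 (median −0.62; 168 to 227 and 71.2 to 228). On the linear scale Hoxb13 averaged 202 ± 213 in core and 263 ± 279 with R. intestinalis, Hoxa13 60.6 ± 42.3 and 73.9 ± 65.4, and Hoxd13 20.1 ± 24.1 and 14.3 ± 19.8. The part of these 6 lists in the members' values was not tested, apart from Hoxb13 of the distal hindgut. That of the fibroblast and adipocyte lists was not tested either. The log2 difference of Acsf2 was 0.70 with the epithelial marker level as a covariate, 0.98 with that of smooth muscle and 0.83 with Hoxb13. For Acsm3 the 3 covariates gave −0.22, −0.77 and −0.31, and for Acat1 −0.07, −0.54 and −0.33, again below 0. With smooth muscle as a covariate 4 members (Acsf2, Acsm3, Acads and Acat1) had an unadjusted p below 0.05, as had 2362 of all 13020 genes tested. None of the members passed the adjusted threshold in any of these covariate fits.

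**Figure D5:**
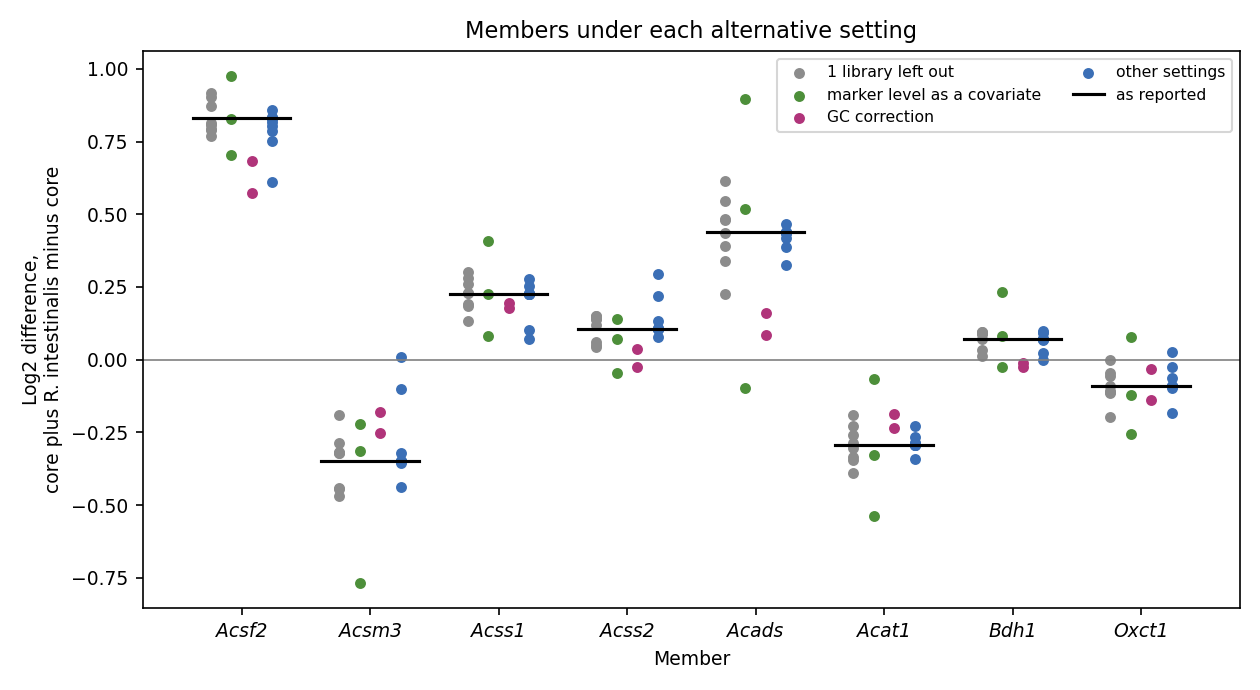
Log2 difference of each member, core plus R. intestinalis minus core, as reported (black line) and under 23 alternative settings (dots, coloured by kind). Acsf2 stays between 0.57 and 0.98, while Acads runs from −0.10 to 0.90.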

How the data were processed

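RNA of the proximal large intestine was sequenced from stranded mRNA libraries, 1 per sample. The genome build mm9 and the tools RSEM 1.2.23 and Bowtie2 are listed, without role or order, per the submitters' processing notes. The deposited table gives each gene and library a normalized expression signal, scaled between libraries by the authors by a method that the header does not name. The sample names number the core libraries 3 to 5, so a core library may have been left out of the authors' scaling and comparison. The authors' comparison, per the file headers, adds a posterior probability of differential expression, a score from 0 to 1, and raw and posterior fold changes, each a linear ratio with core as denominator. Per library, 79.8% to 84.2% of low values were whole multiples of 1 step within 0.05 step, too few to take the values as reads, and depth is an estimate.

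Values were tested as log2(value + 1) in genes with a mean of at least 10, with limma 3.58.1 in R 4.3.3 (mean-variance trend), an adjusted p below 0.05 as threshold, and p-values adjusted over all 13020 genes tested. The fit was checked on data simulated from each gene's mean and spread. In the simulated data 67 genes were changed 1.5-fold, 67 genes 2-fold and 66 genes 4-fold. At the threshold the fit recovered 11.9% of 1.5-fold, 53.7% of 2-fold and 89.4% of 4-fold changes, with 6 false calls. Smaller changes can thus go uncalled. An adjusted p depends on how many genes change, so these rates can be too high for the measured data, where 0 genes passed. Whether they hold under the GC and tissue differences between these libraries was not tested. Single members were also tested by a two-sided exact permutation test over 56 assignments of the libraries. Members and lists were chosen with earlier results of these data known, Acsf2 among them, and no pattern here is independent of those. From each list the 3 tested genes with the smallest p were named, and the genes most like Acsf2 (5) and each other member (2), leaving out predicted genes, Riken clones, ribosomal proteins and antigen receptor segments. A GC correction (lowess on transcript GC content, known for 98.8% of genes) was added after seeing the data. Other alternatives were pseudocounts, filters on low values, TMM scaling, quantile normalization, leaving out libraries, library weights, marker covariates and the replicate block. Replicate numbers were not used as pairs in the reported fit. A listed gene that is not reported here was left out of the lists and their counts.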

Additional observations from a re-analysis of the deposited data

Results flagged for a closer look

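Among the 8 members and 12 named list genes (20 genes), 3 had a library with R. intestinalis far from the other 4 of its group, where chance gives about 1 in 20. Bdh1 was 1137 in core plus R. intestinalis replicate 1. Acsf3 was 111 in the same library. Hmgcll1 was 36.7 in replicate 2. Replicate 1 is also the library with the steepest dependence on transcript GC content (0.564 log2 units per 10 percentage points). After the GC correction Bdh1 in replicate 1 was 9.91 on the log2 scale, between the lowest (9.79) and highest (9.97) of the other libraries of its group. Whether GC dependence accounts for the flagged values was not tested.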

How the results depend on the processing

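Of 184 member values under alternatives, 174 kept their direction, and in 23 of 23 alternatives no member passed the threshold; Acsf2 came closest with limma library weights (log2 difference 0.61, adjusted p = 0.05003; 0.98 at the highest over its alternatives). Those weights favoured core plus R. intestinalis replicate 3 (7.98) and gave 455 genes past the threshold, with Acsm3 at 0.0097 and Bdh1 at −0.0016. Leaving out 1 library gave 0 to 1 genes, the 1 without core replicate 1, and Acsf2 ran from 0.77 to 0.92. With smooth muscle as a covariate Acss2 was −0.046. With epithelial markers Acads was −0.10, Bdh1 −0.024 and Oxct1 0.076. After a GC correction Bdh1 was −0.012. With a GC correction and the replicate block Acss2 was −0.026 and Bdh1 −0.025. At an unadjusted p below 0.05, 1 member (Acsf2) was called as reported, 4 with smooth muscle as a covariate, 3 with Hoxb13 (Acsf2, Acads, Acat1), 3 with library weights (Acsf2, Acss2, Acat1) and 2 without core plus R. intestinalis replicate 2 (Acsf2, Acads). In the same order, 1058, 2362, 2400, 3829 and 1908 of all 13020 genes tested were called. The cause of these shifts was not tested. Of the 82 genes whose posterior probability in the authors' comparison was at least 0.95, 51 reached 0.99, and Acsf2 (0.98) did not.

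Deviations of same-numbered libraries from their group means were not positively correlated (−0.530 to −0.0699 by title and −0.494 to −0.0105 by sample name). These correlations cannot settle whether the numbers mark pairs, because a shared cage or batch need not show in them. As a replicate block, the title number gave 0 genes and Acsf2 0.75, and the sample name number 0 genes, Acsf2 0.80 and Oxct1 0.026. Acsf2 and Acads had the fewest estimated reads of the members, as few as 89 and 146 in a library, and the part of depth in their values was not tested.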
